A study of Mus musculus with 4 samples.

Results

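The genes described here are 5 subunits of the transcription factor NF-kB (Nfkb1, Nfkb2, Rel, Rela and Relb), 4 of its inhibitors (Nfkbia, Nfkbib, Nfkbie and Tnfaip3) and Plau, which encodes urokinase. They were chosen by symbol from the annotation deposited with the count table and joined to the counts by Ensembl identifier, which gave 10 of the 54232 genes in the table. All 10 passed the filter on low counts, among 16749 genes tested. Bulk RNA was sequenced from RPP631, a line of small cell lung cancer (SCLC) from mice. The cells had spent 48 h in 100 nM YKL, which the series title calls an inhibitor of the kinase CDK7, or 48 h in DMSO, the vehicle. Each group held 2 libraries of this 1 line, whose genotype is not given in the sources used here.

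NF-kB subunits bind DNA as dimers. In resting cells most dimers are held in the cytoplasm by inhibitor proteins of the IκB family. Signals from TNF, interleukin 1 or Toll-like receptors activate the IκB kinase complex, which marks IκB for destruction and frees the dimers to enter the nucleus. Several inhibitor genes are themselves targets of NF-kB, so that the pathway limits its own activity. CDK7, as part of TFIIH, phosphorylates RNA polymerase II early in transcription, and it also activates cell cycle kinases.

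The libraries held 29817387 and 32956564 counts in YKL and 34189709 and 31082753 in DMSO. All 12 markers of SCLC and neuroendocrine cells passed the filter, with summed levels of 4789 and 4589 CPM (counts scaled to library size, with TMM factors) in YKL and 5946 and 5236 CPM in DMSO. Of these markers 1, Nkx2-1, was called, and it was lower in YKL. Among 10 immune markers, Nkg7 and Cd3e had no count in any library, and the summed level of the list was 9.82 and 6.39 CPM in YKL and 3.53 and 5.93 CPM in DMSO. The fibroblast markers summed to 13.2 to 45.7 CPM over the 4 libraries, the endothelial markers to 44.2 to 75.2 CPM and the airway and alveolar markers to 7.20 to 16.3 CPM. In every library most of each sum came from 1 gene, namely Pdgfra, Vwf and Foxj1 in turn. Cldn5 of the endothelial list and Scgb3a2 of the airway and alveolar list had no count in any library. These sums therefore mainly follow single genes, and whether such cells were present was not tested. In bulk RNA, fewer cells of a type and less RNA per cell cannot be told apart. The labels do not say whether replicates were separate cultures, so the tests measure the spread between these samples, which may be technical.

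Plau was higher in YKL, Rela and Nfkb1 had somewhat higher values, and Nfkbia and Relb somewhat lower ones. Plau alone passed the threshold of edgeR's quasi-likelihood test over all genes (adjusted p under 0.05), against 3.54% of all genes tested (2.1% higher and 1.44% lower in YKL). Plau was put among the genes described here because earlier results of these libraries had called it, and the other 9 were chosen with their values in this contrast known. The values of all 10 are therefore a description, and no p-value is given for them. None of the 9 passed in edgeR or in the DESeq2 run made here, which called 1588 of 14476 genes. In edgeR 1 of them, Rela, had an unadjusted p under 0.05, as did 21.2% of all genes tested. In the authors' deposited DESeq2 table, described below, Rela, Rel and Nfkb1 did have an adjusted p under 0.05. In 6 of the 10 genes the YKL libraries lay wholly above or below the DMSO libraries, against 52.3% of all genes tested, so this share was near the background.

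**Figure D1:**
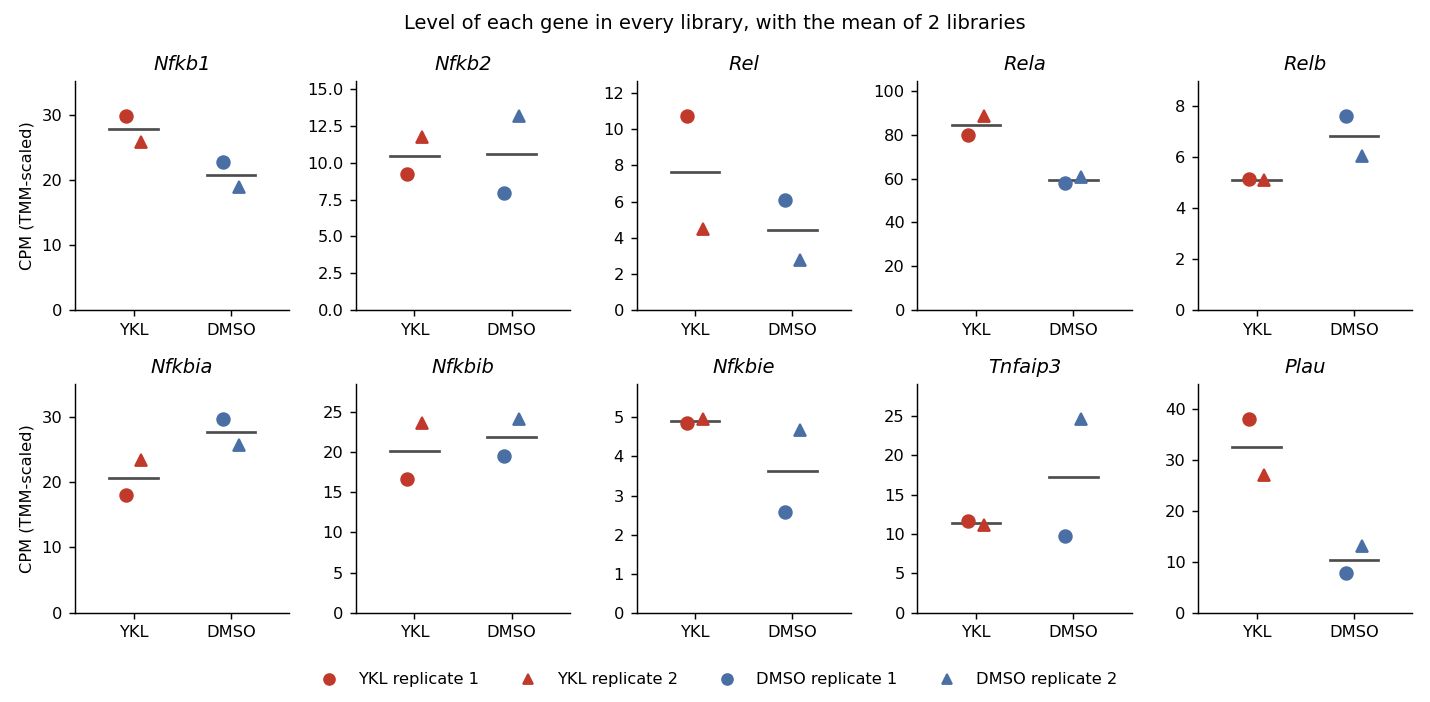
Level of each of the 10 genes in every library, in CPM scaled by TMM on axes that start at 0. Circles are replicate 1, triangles replicate 2, and the line is the mean of 2 libraries. YKL lies above DMSO without overlap for Nfkb1, Rela, Nfkbie and Plau, and below it for Relb and Nfkbia.

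Among the subunits, Rela and Nfkb1 were above DMSO in both YKL libraries, Relb was below, and Rel and Nfkb2 overlapped. Rela (ENSMUSG00000024927, chromosome 19, 5637483 to 5648130, mm10) encodes p65, which carries a transactivation domain and is the main partner of p50. It had 80.0 and 88.6 CPM in YKL and 58.1 and 60.6 CPM in DMSO. Both YKL libraries were above both DMSO libraries, with means of 84.3 ± 6.06 CPM in YKL and 59.4 ± 1.81 CPM in DMSO (SD, n = 2 each). The log2 fold change, YKL over DMSO throughout, was 0.51 ± 0.18 (standard error), or 1.42-fold. It ran from 0.43 to 0.58 over the alternatives tried.

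Nfkb1 encodes p105, the precursor that is processed to p50. It had 29.8 and 25.9 CPM in YKL and 22.7 and 18.9 CPM in DMSO. The groups did not overlap, and the log2 fold change was 0.42 ± 0.23. Rel encodes c-Rel, a subunit best known from lymphocytes. It had 329 and 145 counts in YKL and 204 and 87 counts in DMSO, or 10.7 and 4.50 CPM in YKL and 6.10 and 2.76 CPM in DMSO. Replicate 1 was above replicate 2 in both groups, by 2.39-fold in YKL and 2.21-fold in DMSO, and the groups overlapped. Its log2 fold change of 0.78 ± 0.54 was 0.02 without YKL replicate 1 and 1.46 without DMSO replicate 1.

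Relb and Nfkb2 act in the non-canonical pathway. Relb encodes a subunit that pairs mainly with p52 and its precursor p100. It had 5.16 and 5.09 CPM in YKL and 7.62 and 6.06 CPM in DMSO. The YKL libraries lay close together and below both DMSO libraries, at a log2 fold change of -0.42 ± 0.37. Nfkb2 encodes p100, which also acts as an inhibitor through its ankyrin repeats. It had 9.20 and 11.7 CPM in YKL and 7.95 and 13.2 CPM in DMSO. The YKL values fell between the DMSO values, and the log2 fold change of -0.01 ± 0.35 had no stable sign over the alternatives. Nfkb2 shares 4 exonic bases with Psd on the other strand, and the strand setting of the counting is not given in the sources used here.

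Of the 3 IκB genes, Nfkbia was lower without overlap in CPM, Nfkbie was higher by a narrow gap and Nfkbib overlapped. Nfkbia (ENSMUSG00000021025, chromosome 12, 55489410 to 55492647) encodes IκBα, the inhibitor that is degraded and resynthesised fastest after a stimulus. It had 18.01 and 23.3 CPM in YKL and 29.7 and 25.6 CPM in DMSO. Both YKL libraries were below both DMSO libraries, with a log2 fold change of -0.42 ± 0.24. Nfkbib encodes IκBβ, which responds more slowly. It had 16.6 and 23.7 CPM in YKL and 19.5 and 24.2 CPM in DMSO, and its log2 fold change of -0.12 ± 0.27 was 0.12 without YKL replicate 1 and 0.01 without DMSO replicate 2. Of its 2169 exonic bases, 314 overlap Ccer2 and 42 overlap Sirt2 on the other strand, and Ccer2 had 5 to 14 counts per library. Nfkbie encodes IκBε, an inhibitor of dimers that hold p65 or c-Rel. It had 149 and 160 counts in YKL and 86 and 147 counts in DMSO, or 4.86 and 4.97 CPM in YKL and 2.57 and 4.66 CPM in DMSO. The gap between the groups was set by DMSO replicate 2, which lay just under the YKL libraries, and the log2 fold change of 0.44 ± 0.43 was 0.08 without DMSO replicate 1. In TPM, a share per length that does not use the TMM factors, the groups of Nfkbie overlapped.

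Tnfaip3 encodes A20, a ubiquitin-editing enzyme that ends signalling upstream of the IκB kinases. It had 11.6 and 11.1 CPM in YKL and 9.71 and 24.7 CPM in DMSO. DMSO replicate 2 stood apart from the other 3 libraries, which lay within 9.71 to 11.6 CPM. The log2 fold change was -0.60 ± 0.42 with all libraries, 0.19 without DMSO replicate 2 and -1.11 without DMSO replicate 1. Without DMSO replicate 1 it passed the threshold, so its direction and its call both rested on which DMSO library was kept.

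Within groups, the same replicate number had the higher value in both groups for 7 of the 10 genes. Rel had the widest pair in YKL, and Tnfaip3 had the widest pair in DMSO, at 2.54-fold, against 1.04-fold in YKL. The DMSO pair was the wider one in 6 of the 10 genes. Neither count was made over all genes, so both are a description. Over all genes tested, same-numbered libraries deviated together only weakly (correlation 0.152).

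**Figure D2:**
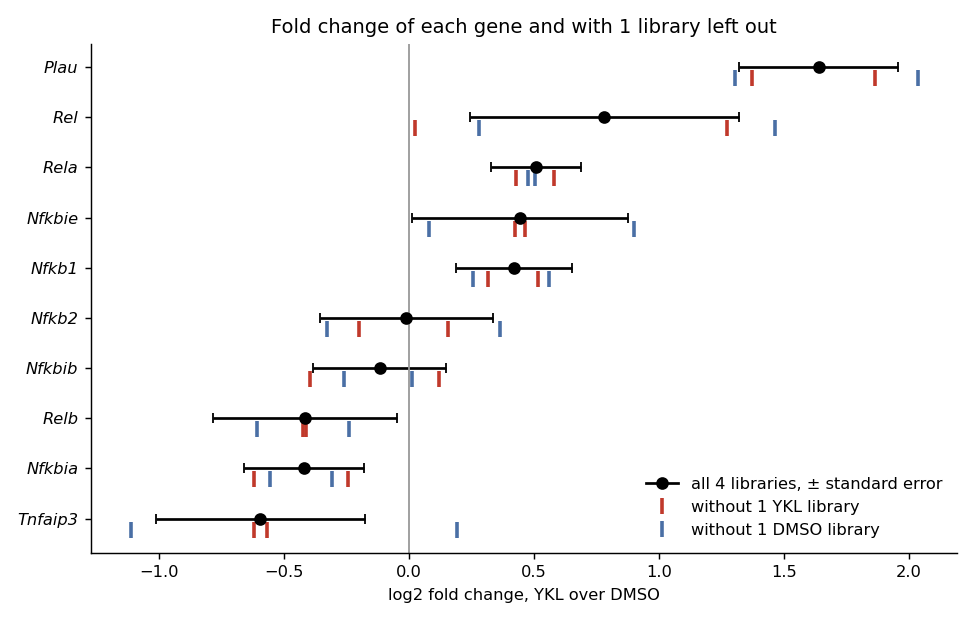
Log2 fold change of each gene, YKL over DMSO. Black points are the fit to all 4 libraries with its standard error, and ticks are fits with 1 YKL library (red) or 1 DMSO library (blue) left out. Plau stays between 1.30 and 2.04, whereas Nfkb2, Nfkbib and Tnfaip3 take values on both sides of 0.

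Plau (ENSMUSG00000021822) encodes the serine protease urokinase, which cleaves plasminogen to plasmin at the cell surface and is a known target of NF-kB and AP-1. It had 1169 and 870 counts in YKL and 259 and 416 counts in DMSO. That was 38.2 and 27.0 CPM in YKL and 7.74 and 13.2 CPM in DMSO. The lower YKL library was well above the higher DMSO library, and the means were 32.6 ± 7.88 CPM in YKL and 10.5 ± 3.86 CPM in DMSO (SD, n = 2 each). The log2 fold change was 1.64 ± 0.32, or 3.11-fold. It kept its sign in all 14 other fits and passed the threshold in 9 of them. It did not pass without YKL replicate 1 (log2 fold change 1.37) or without YKL replicate 2 (1.86), with total count or upper quartile scaling, or without the robust prior.

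Plau lies on chromosome 14 (20836660 to 20843385, plus strand, mm10), and its exons overlap no other gene of the count table. The nearest tested genes were not called. Camk2g, 42572 bases before it, had 31.1 and 23.6 CPM in YKL and 33.9 and 39.2 CPM in DMSO, a log2 fold change of -0.42 ± 0.23 with both YKL libraries below both DMSO libraries. Vcl, 86013 bases beyond it, had 48.6 and 60.1 CPM in YKL and 56.8 and 48.9 CPM in DMSO, a log2 fold change of 0.04 ± 0.20. Its groups overlapped. The adjusted p in edgeR was 0.325 for Camk2g and 0.94 for Vcl.

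The genes with the profile most like that of Plau over the 4 libraries were Gm26592, Depdc7, Pnpla7, 2810408I11Rik and Mdga1. Likeness was the root mean square difference of mean-centred log2 CPM, and it ran from 0.09 to 0.11 for these 5, out of 11542 genes compared. With 4 libraries in 2 groups, such likeness holds mainly the size of the difference between the groups. Mdga1, which encodes a membrane-anchored cell adhesion protein, had 35.0 and 28.3 CPM in YKL and 7.08 and 11.2 CPM in DMSO. Depdc7 had 45.0 and 35.3 CPM in YKL and 11.2 and 16.9 CPM in DMSO.

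The authors' deposited table of their own comparison rests on the same 4 libraries, so it is not a separate check of these values. It gave the same sign for all 10 genes, although Nfkb2 was close to 0 there (log2 fold change -0.0027). Of the 10 genes, 4 had in the authors' deposited table an adjusted p under 0.05, namely Plau, Rela, Rel and Nfkb1, against 27.8% of its 15936 genes. The log2 fold changes there were 1.38 for Plau, 0.47 for Rela, 0.65 for Rel and 0.38 for Nfkb1, in the authors' deposited table, with errors of 0.24, 0.13, 0.22 and 0.14. For Nfkbia the authors' deposited table held -0.39 ± 0.20 and for Tnfaip3 -0.42 ± 0.24. Its larger share of calls covers genes of every kind, and the version and filter behind it are not given in the sources used here.

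Levels of different genes were compared per length, as TPM, the length-scaled share of each gene among all transcripts. Rela was the most abundant of the 10, at 113 and 114 TPM in YKL and 79.0 and 83.6 TPM in DMSO, above 88.5% of the tested genes in YKL and 83% in DMSO. In YKL the order was Rela, Plau, Nfkbia, Nfkbib, Nfkb2, Nfkb1, Nfkbie, Tnfaip3, Relb and Rel. Of these neighbours, Plau and Nfkbia, Nfkb1 and Nfkbie, and Relb and Rel overlapped between libraries. In DMSO the order was Rela, Nfkbia, Nfkbib, Plau, Nfkb2, Tnfaip3, Relb, Nfkb1, Nfkbie and Rel, and every neighbouring pair from Plau to Nfkbie overlapped. Plau came next after Rela in YKL, at 50.9 ± 15.5 TPM, and after Nfkbib in DMSO, at 16.5 ± 6.22 TPM (SD, n = 2 each).

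**Figure D3:**
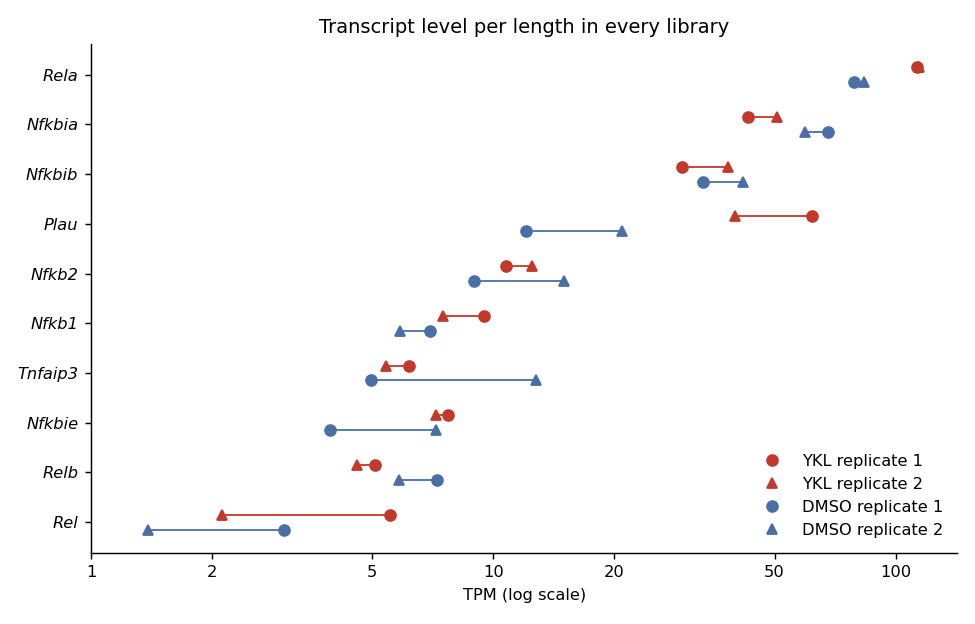
TPM of the 10 genes in every library on a log axis, with genes ordered by their mean over all libraries. For each gene the upper, red marks are YKL and the lower, blue marks are DMSO, and a line joins the 2 libraries of a group. Rela is at 113 and 114 TPM in YKL and at 79.0 and 83.6 TPM in DMSO, while Rel has the lowest mean in both groups, 3.82 TPM in YKL and 2.20 TPM in DMSO.

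The 5 subunit genes summed to 144 and 141 TPM in YKL and 105 and 112 TPM in DMSO. Rela took 78.6% and 81.0% of that sum in YKL and 75.1% and 74.9% in DMSO, so the sum mainly follows Rela. The 3 IκB genes summed to 80.0 and 96.2 TPM in YKL and 105 and 109 TPM in DMSO. Nfkbia took 53.7% and 52.8% of the IκB sum in YKL and 64.7% and 54.9% in DMSO. The ratio of IκB to subunit transcripts was 0.556 and 0.682 in YKL and 1.001 and 0.972 in DMSO. Both YKL libraries were below both DMSO libraries in this ratio, and the mean log2 ratio was 0.68 lower in YKL (a difference of -0.68). With 2 libraries against 2, a two-sided exact permutation test cannot give a p under 0.333, so none was run. The difference ran from -0.83 to -0.53 with 1 library left out and was -0.73 with Rela, Rel and Relb alone in the denominator.

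**Figure D4:**
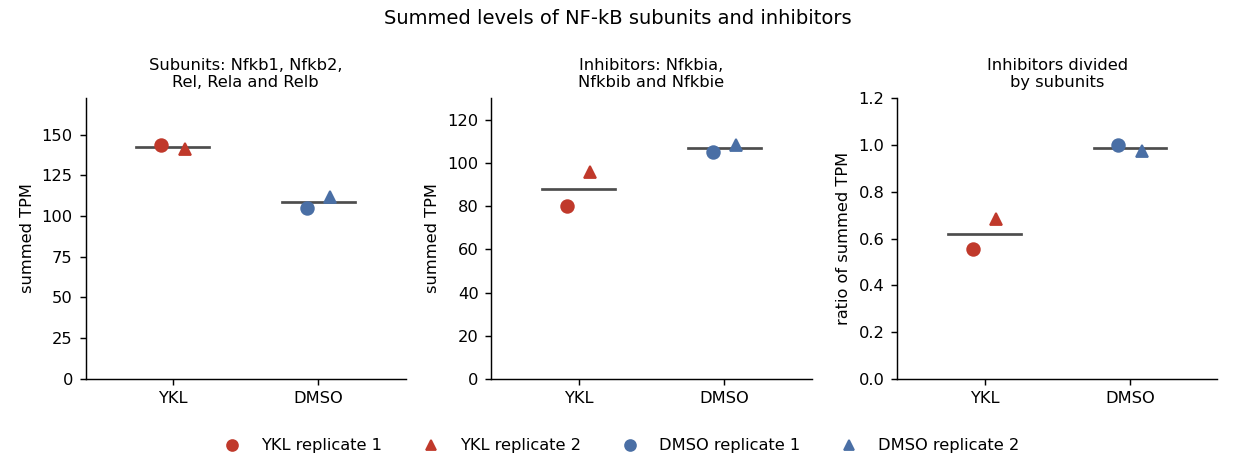
Summed TPM of the 5 subunit genes and of the 3 IκB genes, and the ratio of the sums, in every library (circles replicate 1, triangles replicate 2, lines the mean). The ratio is 0.556 and 0.682 in YKL and 1.001 and 0.972 in DMSO.

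Upstream sequence was read from RefSeq (GRCm38.p6) for the 7 genes that matched, namely Nfkb2, Rel, Rela, Nfkbia, Nfkbib, Nfkbie and Tnfaip3, as the 250 bases before each annotated start. The NF-kB consensus, a motif of 10 letters searched on both strands, was found in 7 of their 10 windows, upstream of 5 of the genes, and in 3.9% of all 32851 windows of the same length. These 5 were Nfkb2, Rel, Nfkbia, Nfkbie and Tnfaip3. Rela and Nfkbib had no such match. Plau, Nfkb1 and Relb had no window in this sequence set and were not searched. The genes were chosen as members of this pathway, so the share is a description. The 4 windows shown here hold a consensus match, and none of the 4 genes was called. In CPM Nfkbia lay lower in YKL without overlap, Nfkbie lay higher by a narrow gap, and Nfkb2 and Rel overlapped. Capitals mark bases in a match on either strand, and matches can overlap.
Nfkbia, chr12:55492648-55492897, minus strand: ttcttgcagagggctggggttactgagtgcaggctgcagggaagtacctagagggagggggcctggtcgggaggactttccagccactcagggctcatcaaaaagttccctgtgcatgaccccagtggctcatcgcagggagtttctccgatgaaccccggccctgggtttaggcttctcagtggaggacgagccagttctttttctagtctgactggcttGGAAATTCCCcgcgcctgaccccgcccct
Nfkbie, chr17:45555450-45555699, plus strand: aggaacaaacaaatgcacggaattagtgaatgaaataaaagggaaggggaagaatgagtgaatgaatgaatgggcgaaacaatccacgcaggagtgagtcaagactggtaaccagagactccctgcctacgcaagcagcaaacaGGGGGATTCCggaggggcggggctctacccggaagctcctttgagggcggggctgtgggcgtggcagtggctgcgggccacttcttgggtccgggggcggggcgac
Nfkb2, chr19:46304487-46304736, plus strand: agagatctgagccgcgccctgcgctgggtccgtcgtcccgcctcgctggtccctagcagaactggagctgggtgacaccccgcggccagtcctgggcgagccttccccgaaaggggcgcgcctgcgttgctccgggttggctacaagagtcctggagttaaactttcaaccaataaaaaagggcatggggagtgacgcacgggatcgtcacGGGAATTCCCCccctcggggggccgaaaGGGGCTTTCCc
Rel, chr11:23770970-23771219, minus strand: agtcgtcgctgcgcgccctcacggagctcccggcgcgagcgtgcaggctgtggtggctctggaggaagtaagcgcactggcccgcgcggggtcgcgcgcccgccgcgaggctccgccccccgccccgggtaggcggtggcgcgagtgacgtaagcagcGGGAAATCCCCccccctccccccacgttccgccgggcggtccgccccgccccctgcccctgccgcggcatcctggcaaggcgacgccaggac

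In Nfkbia the match, read as GGGAATTTCC on the other strand, lies 29 to 20 bases before the start. In Nfkb2 overlapping matches lie 39 to 29 bases before the start, among them GGGAATTCCC, and another, GGGGCTTTCC, lies 11 to 2 bases before it. Those of Rel lie 92 to 82 bases before its start and include GGGGATTTCC, which is also found 12 to 3 bases before the most upstream start of Tnfaip3. The match of Nfkbie, GGGGGATTCC, lies 106 to 97 bases before its start. None of the 7 genes searched was called in the fit to all libraries, with or without the motif. Plau, which was called, was not searched, so motif and call could not be compared. In the genes with the motif the log2 fold changes were -0.60 for Tnfaip3, -0.42 for Nfkbia, -0.01 for Nfkb2, 0.44 for Nfkbie and 0.78 for Rel. The signs of Tnfaip3 and Nfkb2 turned in some other fits, and a shared direction was not tested.

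The rest of the pathway was read from a list of 56 genes for receptors, adaptors, the IκB kinases and their regulators. Of the 55 tested, 1 was called higher and 1 lower in YKL, which is 3.64% against 3.54% of all genes. The median log2 fold change was 0.01, and that of all genes tested was -1.4e-04. The higher gene was Tnfrsf1b, which encodes TNF receptor 2. It had 36.8 and 33.4 CPM in YKL and 11.7 and 17.9 CPM in DMSO, with a log2 fold change of 1.25 ± 0.26 (adjusted p = 0.0376). The lower gene was Tab1, which encodes an activating partner of the kinase TAK1, itself upstream of the IκB kinases. It had 18.3 and 16.0 CPM in YKL and 38.6 and 33.1 CPM in DMSO, with a log2 fold change of -1.06 ± 0.22 (adjusted p = 0.0378). Both groups were apart in each of these genes, and both calls ended without YKL replicate 1 (adjusted p = 0.186 for Tnfrsf1b and 0.157 for Tab1) and without YKL replicate 2 (0.147 and 0.244).

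The IκB kinase genes themselves, named after their values were seen, were not called. Chuk, which encodes IKKα, had 56.4 and 49.4 CPM in YKL and 71.4 and 65.1 CPM in DMSO. Ikbkb, which encodes IKKβ, had 57.5 and 48.0 CPM in YKL and 46.4 and 74.4 CPM in DMSO. The scaffold gene Ikbkg had 108 and 140 CPM in YKL and 104 and 132 CPM in DMSO. Only Chuk was apart between the groups, where YKL was lower, and the adjusted p was 0.294 for Chuk, 0.709 for Ikbkb and 0.895 for Ikbkg. The most abundant genes of the list per length, Fbxw11, Tab2 and Irak1, had log2 fold changes of -0.31 ± 0.18, -0.28 ± 0.17 and -0.12 ± 0.18. Fbxw11 encodes a ubiquitin ligase subunit that recognises phosphorylated IκB. Ripk1, the kinase that joins the TNF receptor complex, was named after its value was seen and had 82.2 and 85.0 CPM in YKL and 56.1 and 49.2 CPM in DMSO (adjusted p = 0.0798). Of its 8344 exonic bases, 241 overlap Serpinb6a on the other strand. On the same strand 511 overlap Gm17084, which had no count in any library.

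Of 50 genes known as NF-kB targets, 31 passed the filter and 19 had too few counts to test. Of the 31, 1 was called higher and none lower, or 3.23% against 3.54% of all genes. Their log2 fold changes had a median of 0.41, and 24 of the 31 were above 0 and 7 below. Among all genes tested 8373 were above 0 and 8376 below. Some of the 24 were near 0, such as Myc at 0.03 and Hif1a at 0.04. The groups did not overlap in 18 of the 31, against 52.3% of all genes tested. YKL lay above DMSO in 14 and below it in 4, against 27.0% and 25.3% of all genes tested. No test of the list was run. The called gene was Cxcl10, a chemokine gene, with 13.3 and 7.60 CPM in YKL and 3.32 and 1.65 CPM in DMSO (log2 fold change 2.07 ± 0.47, adjusted p = 0.0474). Its groups were apart, it shares 133 exonic bases with Art3 on the other strand, and its call ended without YKL replicate 1 (adjusted p = 0.309) and without YKL replicate 2 (0.0976). Without DMSO replicate 2, 10 genes of this list were called, in a fit that called 2453 of all genes. Without YKL replicate 1 none was, in a fit that called 106.

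Icam1 and Csf1 had large differences that missed the threshold, and both were named after their values were seen. Icam1 encodes an adhesion molecule that binds leukocyte integrins. It had 673 and 717 counts in YKL and 55 and 203 counts in DMSO, or 21.96 and 22.3 CPM in YKL and 1.64 and 6.44 CPM in DMSO. The groups were far apart, but the DMSO libraries also differed from each other, and edgeR gave a log2 fold change of 2.45 ± 0.61 (adjusted p = 0.0942). It passed in DESeq2, without the filter, with a replicate block and without either DMSO library. It shares 511 of 4360 exonic bases with Gm47079 on the other strand, which had 164 and 167 counts in YKL and 18 and 70 in DMSO. Csf1, the gene of macrophage colony-stimulating factor, had 12.4 and 25.1 CPM in YKL and 75.8 and 45.4 CPM in DMSO, a log2 fold change of -1.69 ± 0.41 (adjusted p = 0.0862). Csf1 passed in DESeq2, without the filter, without DMSO replicate 2 and without YKL replicate 2.

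Fth1, the ferritin heavy chain gene, was the most abundant target per length, at 2055 and 2363 TPM in YKL and 1440 and 1571 TPM in DMSO (log2 fold change 0.58 ± 0.19, adjusted p = 0.125). Hif1a and Vegfa overlapped between groups, and Vegfa had 217 and 128 CPM in YKL and 49.9 and 276 CPM in DMSO. Its lowest and highest values were thus both in DMSO. Several cytokine genes of the list had hardly any reads. For Tnf there were 10 and 1 counts in YKL and 1 and 0 in DMSO, and Ccl5 had 3 and 1 counts in YKL and 1 and 0 in DMSO. Ccl2 had 11 and 2 counts in YKL and 1 and 5 in DMSO, and Il6 had 3 and 0 in YKL and 1 and 3 in DMSO. Differences in these 4 were not testable at this depth, and Ccl2 and Il6 were named after their values were seen. Among the immune markers, Ptprc, the pan-leukocyte gene, had 25 and 23 counts in YKL and 0 and 2 in DMSO and was called (adjusted p = 0.0392), and Lyz2 had 142 and 99 counts in YKL and 53 and 68 in DMSO. The groups overlapped for Cd68, with 73 and 31 counts in YKL and 44 and 80 in DMSO, and for Itgam, with 19 and 12 counts in YKL and 8 and 15 in DMSO. Cd79a had 29 and 26 counts in YKL and 5 and 13 in DMSO, and Csf1r had 10 and 14 in YKL and 7 and 7 in DMSO. Both lay higher in YKL without overlap and were not called. These 6 are all the tested immune markers. They were named after their values were seen, and only Ptprc was called. Whether the cultures held immune cells, and any part of such cells in the values of the targets, was not tested.

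**Figure D5:**
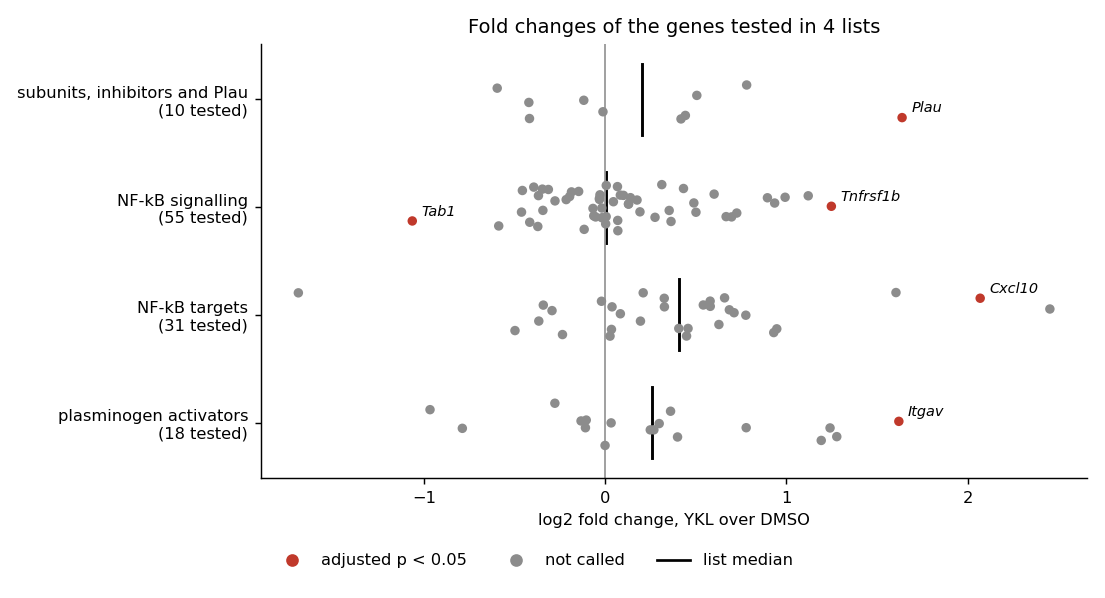
Log2 fold change, YKL over DMSO, of the tested genes in 4 lists. Each point is a gene, red points passed an adjusted p of 0.05 in edgeR, and black bars are list medians of 0.20, 0.01, 0.41 and 0.26 from top to bottom.

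Partners of urokinase were read from a list of 24 genes for the plasminogen activator system, of which 18 were tested. Of these, 1 was called higher and none lower, or 5.56% against 3.54% of all genes, with a median log2 fold change of 0.26. The called gene was Itgav, the αV integrin chain, with 262 and 344 counts in YKL and 103 and 100 in DMSO. Of its 10744 exonic bases, 634 overlap Gm13684 on the other strand, which had no count in any library. The level of Itgav was 8.55 and 10.7 CPM in YKL and 3.08 and 3.17 CPM in DMSO (log2 fold change 1.62 ± 0.37, adjusted p = 0.0462). The groups were apart, and the call ended without YKL replicate 1 (adjusted p = 0.182) and without YKL replicate 2 (0.323). Its partner Itgb3, named after its value was seen, had 10.5 and 8.04 CPM in YKL and 3.38 and 4.28 CPM in DMSO (adjusted p = 0.0926). Leaving out DMSO replicate 2 gave 8 called genes of this list, among 2453 called in all. Leaving out YKL replicate 1 or YKL replicate 2 gave none, with 106 and 71 called in all.

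Neither the urokinase receptor gene nor that of the other plasminogen activator was called, and the plasminogen gene had too few counts to test. Plaur, the urokinase receptor gene, had 26 and 32 counts in YKL and 26 and 38 in DMSO, so it was low in every library and the groups overlapped. Plg, the gene of plasminogen itself, had 15 and 5 counts in YKL and 4 and 0 in DMSO and was not tested. Plat, which encodes the other plasminogen activator, had 11.4 and 6.24 CPM in YKL and 6.55 and 6.79 CPM in DMSO (adjusted p = 0.608). These 3 genes were named after their values were seen. Of the most abundant genes of the list, Eno1 had 750 and 913 CPM in YKL and 363 and 1429 CPM in DMSO, and St14 and Serpine2 had log2 fold changes of 0.27 ± 0.17 and 0.30 ± 0.21.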

How the data were processed

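Bulk RNA of RPP631 cells was sequenced in 2 YKL and 2 DMSO libraries. The submitters' processing notes name STAR 2.5.2b, featureCounts and the mm10 build. The authors deposited raw counts per gene, with an exonic length for each. The authors also deposited a DESeq2 table with a normalized mean signal, log2 fold changes with errors, a test score and p-values.

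The members, the lists and the tests were chosen with earlier results of these data known. Counts were tested with edgeR 4.0.16 in R 4.3.3 (filterByExpr with a minimum count of 10 and a minimum total of 15, TMM scaling, quasi-likelihood test with a robust prior, Benjamini-Hochberg adjustment over 16749 genes, called under 0.05). The standard error is the absolute log2 fold change over the square root of F. TPM came from the counts and deposited lengths. Replicates varied with a common biological coefficient of variation of 25.0%. Genes were named by rule (all members; in each list the called genes and the 3 most abundant per length; the 5 genes most like Plau with a mean of at least 5 CPM; neighbours and overlapping genes), and others are marked as named after their values were seen. The alternatives scaled by RLE, by total count or by upper quartile, dropped the filter, set it at 5 CPM in 2 libraries, added a replicate block, left out the robust prior, tested only protein-coding genes, left out each library in turn, and used DESeq2 1.42.0, an adjusted p under 0.01 and glmTreat at 1.2-fold. Figures were drawn with matplotlib 3.10.9. Some items of the lists are not reported here.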

Additional observations from a re-analysis of the deposited data

How the results depend on the processing

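With all 4 libraries edgeR called 593 genes, 1 of the 10 members, 2 of the signalling genes, 1 of the targets and 1 of the plasminogen activator system. The order in the following counts is the same. Total count scaling gave 169, 0, 0, 0 and 0, upper quartile scaling 331, 0, 0, 0 and 0, and no robust prior 236, 0, 0, 0 and 0. Without the filter there were 1740, 1, 2, 3 and 5, and with DESeq2 1588, 1, 3, 3 and 3. The replicate block gave 1387, 1, 3, 2 and 2. The same-numbered libraries deviated together only weakly (correlation 0.152 over genes), and with 2 pairs the numbers are not shown to pair the samples. An adjusted p under 0.01 left 30, 0, 0, 0 and 0, and glmTreat at 1.2-fold 271, 1, 0, 0 and 0. With protein-coding genes alone there were 512, 1, 2, 0 and 0, and with the filter of 5 CPM 563, 1, 2, 0 and 1. Leaving out 1 library gave 71 to 2453 genes, 0 to 2 members, 0 to 4 signalling genes, 0 to 10 targets and 0 to 8 genes of the plasminogen activator system, with the highest total without DMSO replicate 2 and the lowest without YKL replicate 2. A fit with 1 library in a group takes that library to vary like the other group.

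The sign of Nfkb2 turned with upper quartile scaling (log2 fold change 0.0020) and with the replicate block (0.021), and that of Eno1 (0.20) and Bcl3 (0.072) with the replicate block. With 1 library left out the values that turned were 0.16 and 0.36 for Nfkb2, 0.01 and 0.12 for Nfkbib, 0.19 for Tnfaip3, -0.20 and -0.18 for Hif1a, -0.67 and -0.34 for Vegfa, 1.16 and 0.03 for Eno1, -0.10 and -0.12 for Vcl, 0.21 and 0.0086 for Plaur, 0.15 for Ikbkb, -0.09 and -0.14 for Ikbkg and 0.63 and 0.18 for Bcl3. Over the fits with 1 library left out, values ran from -0.33 to 0.36 for Nfkb2, -0.40 to 0.12 for Nfkbib, -1.11 to 0.19 for Tnfaip3, -0.20 to 0.28 for Hif1a, -0.67 to 1.75 for Vegfa, -0.78 to 1.16 for Eno1, -0.38 to 0.21 for Plaur, -0.49 to 0.15 for Ikbkb, -0.14 to 0.25 for Ikbkg and -0.48 to 0.63 for Bcl3. Bcl3, a signalling gene, was named after its values were seen. The cause was not tested. With 2 libraries per group, single libraries set many of these values, and genes with counts near the floor cannot be tested at this depth.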
